A study of Mus musculus with 18 samples.

Results

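The 10 genes described here act in macroautophagy and mitophagy, the routes by which a cell delivers cytoplasm and mitochondria to the lysosome for breakdown. They are Ulk1, Becn1, Wipi1, Atg7, Map1lc3a, Map1lc3b, Gabarapl1, Sqstm1, Bnip3 and Lamp2, and they were chosen by gene symbol. All 10 have a probe among the 25697 probes of the array, and 9 of them were detected, having passed a detection p of 0.05 in 2 or more of the 18 libraries, and so belong to the 8950 genes tested. Bnip3 was detected in 0 of 18 libraries.

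Liver RNA of 18 mice, 1 mouse to a library, was hybridized to Illumina MouseRef-8 v2 beadchips. The 6 groups were formed by diet and by genotype, as CR SIRT1-/- (n = 3) and AL SIRT1-/- (n = 4), CR SIRT1+/- (n = 3) and AL SIRT1+/- (n = 2), and CR SIRT1+/+ (n = 3) and AL SIRT1+/+ (n = 3). CR is a 40% caloric restriction and AL is feeding ad libitum. The labels give C57BL/6J mice, aged 2 to 5 months when the diets began and 13 to 16 months when the livers were taken, and they describe the SIRT1-/- and SIRT1+/- animals as having no and reduced SIRT1. The alleles are carried by the whole animal and not by the liver alone. The labels name no shared litter or batch, and the p-values below measure the spread between these mice. In a bulk liver, fewer cells of a type and less RNA per cell cannot be told apart.

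In autophagy the ULK1 kinase starts the formation of the autophagosome, and the lipid kinase complex that holds BECN1 marks its membrane with a phosphoinositide that WIPI1 binds. ATG7 activates the ATG8 proteins, among them LC3A, LC3B and GABARAPL1, for attachment to that membrane. SQSTM1, also called p62, ties ubiquitinated cargo to LC3 and is itself broken down by autophagy, BNIP3 marks mitochondria for removal, and LAMP2 is an abundant protein of the lysosomal membrane. In the liver, autophagy supplies amino acids and lipid during fasting. The arrays measure transcripts, and none of the values below is a rate of autophagy.

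The 2 members called for the CR effect averaged over genotypes, by the test given below, were Map1lc3b and Sqstm1. Of 32 alternative settings, 18 lost the call of Map1lc3b and 23 lost that of Sqstm1. The upstream sequences of both are printed because of these calls. That of Atg7, the detected member whose window holds an E-box core, is printed with them. RefSeq windows of GRCm38.p6 were found for 8 of the 10 members, and the 250 bases before each annotated start are used, 5′ to 3′ on the strand of the gene. The Map1lc3b window lies on the plus strand at chr8:121590188-121590437, the Sqstm1 window on the minus strand at chr11:50210821-50211070 and the Atg7 window on the plus strand at chr6:114670846-114671095. Capitals mark every match to a motif searched, which are GC boxes in Map1lc3b and Sqstm1 and an E-box core in Atg7.
Map1lc3b: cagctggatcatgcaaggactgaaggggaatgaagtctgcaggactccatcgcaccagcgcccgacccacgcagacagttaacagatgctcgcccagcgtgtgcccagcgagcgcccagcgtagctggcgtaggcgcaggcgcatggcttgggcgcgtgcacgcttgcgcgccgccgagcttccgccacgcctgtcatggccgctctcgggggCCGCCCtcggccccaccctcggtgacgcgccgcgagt
Sqstm1: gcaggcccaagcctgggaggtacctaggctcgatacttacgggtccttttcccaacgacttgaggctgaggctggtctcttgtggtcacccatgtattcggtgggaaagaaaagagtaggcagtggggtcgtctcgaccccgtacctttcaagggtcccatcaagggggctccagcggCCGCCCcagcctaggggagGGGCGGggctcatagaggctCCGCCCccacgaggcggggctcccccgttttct
Atg7: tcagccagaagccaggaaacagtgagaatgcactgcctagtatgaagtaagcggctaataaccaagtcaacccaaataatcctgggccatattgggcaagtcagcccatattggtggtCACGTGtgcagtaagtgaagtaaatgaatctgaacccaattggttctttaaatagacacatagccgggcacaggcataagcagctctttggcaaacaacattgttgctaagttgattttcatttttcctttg

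Each window was searched on both strands for CACGTG (the E-box core, bound by factors such as TFEB and MYC), GTAAACA (bound by FOXO factors), TGACNNNGC (the antioxidant response core), TGACGTCA (the cAMP response element), TATAAA and GGGCGG (the GC box). Map1lc3b held 1 GC box and Sqstm1 held 3, with no match to the other motifs in either window, and 32.7% of all 32841 windows of this length hold a GC box. The Atg7 and Bnip3 windows each hold 1 CACGTG, which 6.02% of all windows hold. Neither match is part of the longer coordinated lysosomal element, which 0.241% of all windows hold. These matches describe letters and not bound sites.

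Levels below are scaled log2 signals, in which 0 is the mean of all probes of an array and 1 unit is a doubling of signal at the average spread of the arrays. Levels of different genes come from different probes and are not compared with each other. The array brightness, taken as the median signal, ran between 57.4 and 86.6 in CR libraries and between 59.3 and 78.8 in AL libraries, with 10726 to 11386 probes detected per library. The CR arrays at 80.1, 80.4, 81.3, 82.3 and 86.6 were brighter than every AL array. The CR array at 57.4 was dimmer than every AL array. Brightness thus went in part with diet. The 7 detected of 8 hepatocyte markers averaged 5.05 to 6.02 in every library, and Tat was not detected. The neutrophil markers Ngp, Camp and Ltf and the lymphocyte markers Cd3e, Cd8a, Cd79a and Ms4a1 were not detected either. The 2 lymphocyte markers that were detected averaged -1.06 to -0.26 in CR and -0.97 to -0.07 in AL libraries. AL SIRT1-/- replicate 4 stood apart: its genes deviated from their group means with an SD of 0.451, against 0.169 to 0.340 in the other libraries, its acute-phase genes averaged 5.95, against 2.85 to 4.60, and its 2 detected neutrophil markers averaged 2.52, against at most 0.791. The labels call every mouse male, whereas the study's methods describe the array mice as male and female. Of the arrays, 5 of the 9 CR and 2 of the 9 AL detected Xist, a transcript of female cells, and no Y-linked gene. By group these were 2 of 3 CR and 2 of 4 AL SIRT1-/- arrays, 1 of 3 CR and 0 of 2 AL SIRT1+/- arrays, and 2 of 3 CR and 0 of 3 AL SIRT1+/+ arrays. The genotype label of AL SIRT1-/- replicate 1 is in doubt, since this array may be an AL SIRT1+/- one in the study's own use of it. The label was kept, every SIRT1-/- and SIRT1+/- value on AL carries this limit, and without this library no member was called in any comparison. The Sirt1 probe averaged 1.35 ± 0.385 in CR SIRT1-/- and 1.04 ± 0.167 in AL SIRT1-/- livers, against 1.51 ± 0.46 in CR SIRT1+/+ and 1.14 ± 0.0548 in AL SIRT1+/+ livers (SD), and since its place relative to the deletion is not known here, it does not check the genotypes.

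**Figure D1:**
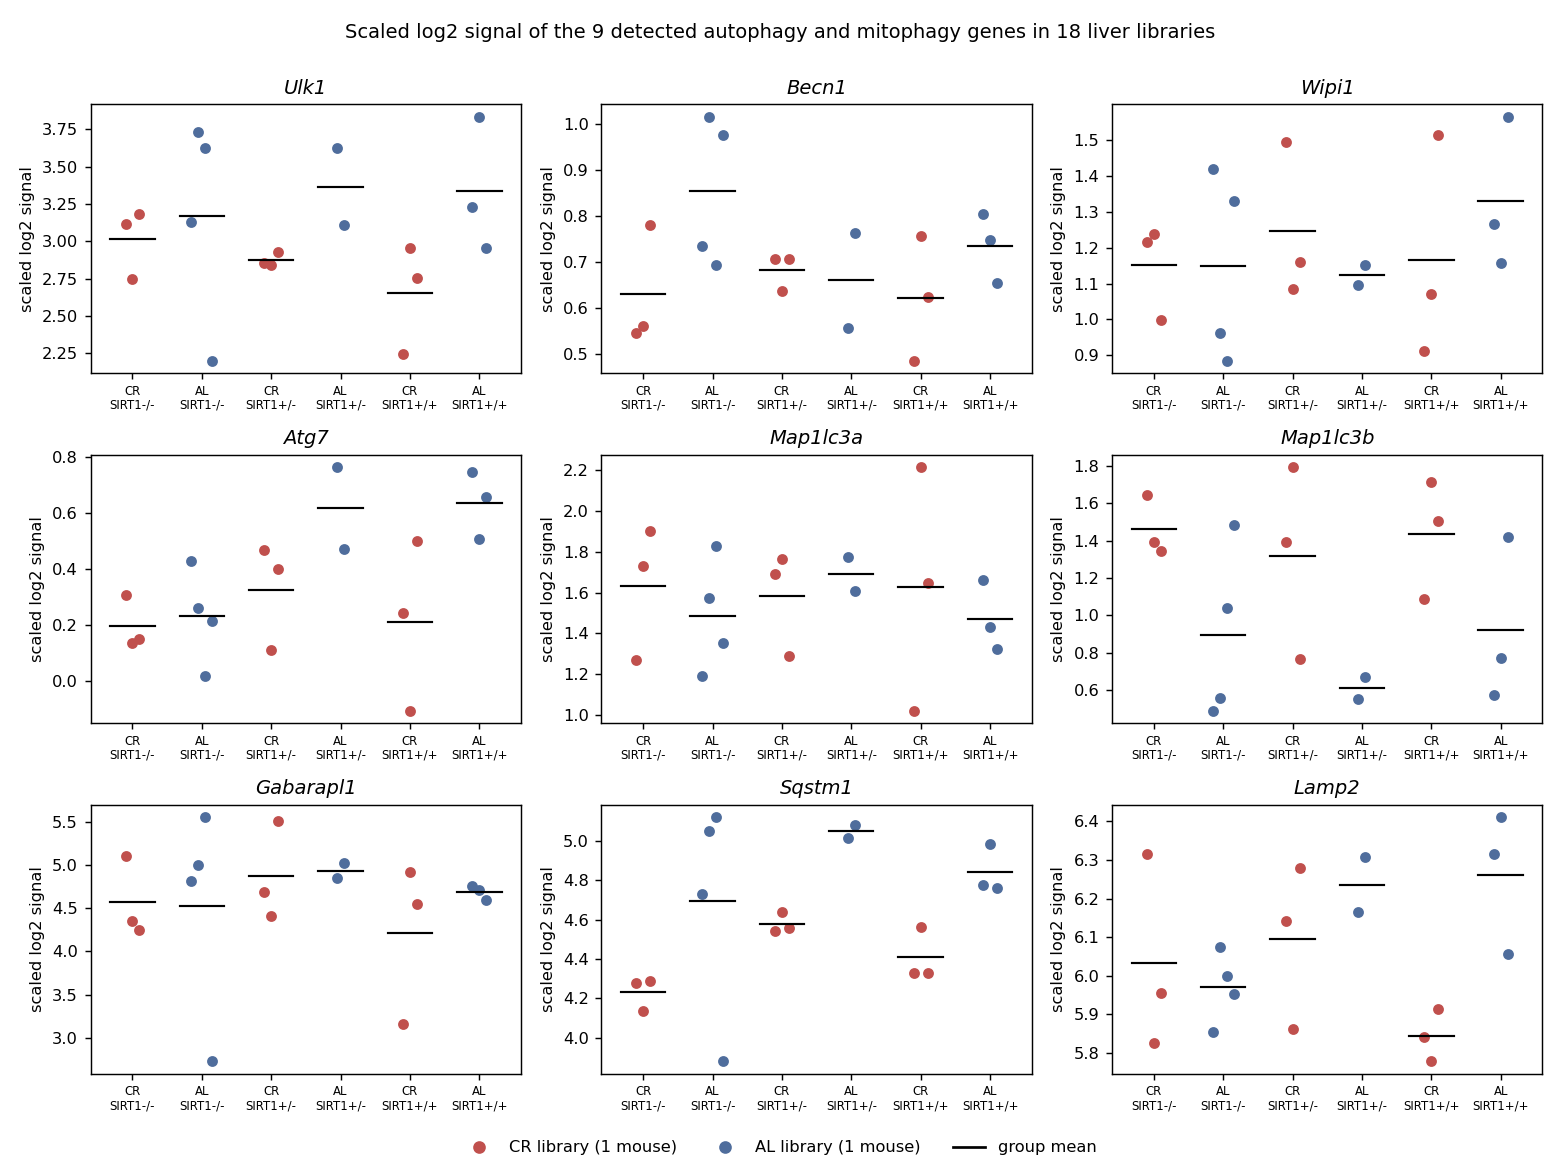
Scaled log2 signal (vertical axes, each with its own range) of the 9 detected genes in the 6 groups of diet and genotype, with 1 point per mouse and a line at the group mean. Sqstm1 lies between 4.13 and 4.64 in the 9 CR livers and, apart from 1 AL SIRT1-/- liver at 3.88, between 4.73 and 5.12 in the AL livers.

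The first question was whether CR changed these transcripts over the 3 genotypes together. Averaged over genotypes, the transcript of Map1lc3b (LC3B, the ATG8 protein most used to count autophagosomes) rose and that of Sqstm1 (the p62 receptor) fell with CR, by 1.51-fold and 1.37-fold. These folds are of the scaled signal. The unscaled mean signal of the Sqstm1 probe was higher on CR in each genotype, at 2939 in CR and 2862 in AL SIRT1-/- livers, 3214 in CR and 2836 in AL SIRT1+/- livers, and 3486 in CR and 3096 in AL SIRT1+/+ livers. The fall of Sqstm1 is thus a fall relative to the other probes of an array, and its averaged difference was -0.39 after neqc (adjusted p = 0.0615) and after quantile normalization (adjusted p = 0.0558). The other 7 detected members did not pass the test. A call means a Benjamini-Hochberg adjusted p under 0.05 over all 8950 genes in the limma fit of the 6 group means. By this rule 899 genes were called for the averaged CR effect, 10% of those tested (6.41% up and 3.63% down), beside 2 of the 9 members, 1 up and 1 down. At an unadjusted p under 0.05, 1 member was higher (16.4% of all genes) and 3 were lower (11.5%), namely Sqstm1, Ulk1 and Atg7. The averaged effects of the members were positive for 2 and negative for 7, with a median of -0.17 on the log2 scale, against a median of 0.03 over all genes.

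Map1lc3b stood at 1.64, 1.39 and 1.35 in CR SIRT1-/- livers, against 0.49, 0.56, 1.04 and 1.49 in AL SIRT1-/- livers. It was at 1.39, 1.80 and 0.76 in CR SIRT1+/- livers and at 0.55 and 0.67 in AL SIRT1+/- livers. In CR SIRT1+/+ livers it was at 1.09, 1.72 and 1.50, against 0.57, 0.77 and 1.42 in AL SIRT1+/+ livers. Most CR livers were thus above most AL livers, but in the SIRT1-/- and SIRT1+/+ genotypes 1 AL liver reached the CR range, and only in SIRT1+/- livers did the diets not overlap. The averaged difference was 0.60 (SE 0.17, 95% confidence interval 0.23 to 0.96, limma adjusted p = 0.0398). Within a genotype it was 0.57 (SE 0.27) in SIRT1-/-, 0.71 (SE 0.33) in SIRT1+/- and 0.52 (SE 0.29) in SIRT1+/+ mice, with adjusted p of 0.345, 0.594 and 0.436.

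The level of Map1lc3b moved with array brightness in part of the libraries. The 2 AL livers with the highest Map1lc3b, AL SIRT1-/- replicate 4 at 1.49 and AL SIRT1+/+ replicate 3 at 1.42, had the brightest AL arrays, with median signals of 78.8 and 75.0, and the CR liver with the lowest Map1lc3b, CR SIRT1+/- replicate 3, had the dimmest CR array at 57.4. Within CR SIRT1-/- livers it ran the other way, with 1.64 on the dimmest array (64.9) and 1.39 and 1.35 on the others (82.3 and 80.4), as it did in AL SIRT1-/- replicates 1 to 3, at 0.49, 0.56 and 1.04 on arrays of 67.7, 65.3 and 60.8. With the median array signal as a covariate, an alternative chosen after seeing the data, the averaged difference of Map1lc3b was 0.32 (adjusted p = 0.276), that of Sqstm1 was -0.33 (adjusted p = 0.243), and 277 of 8950 genes were called in that fit in place of 899. The part of brightness in these results was not tested beyond this fit. With the Y-linked transcripts in the fit the difference of Map1lc3b was 0.65 (adjusted p = 0.0584), and on the arrays with a Y-linked signal alone it was 0.64 (adjusted p = 0.258), so that its call was lost in both. The call of Map1lc3b was also lost when any 1 of 13 libraries was left out (adjusted p 0.0529 to 0.116), while the difference stayed between 0.52 and 0.69. It was kept (0.0156 to 0.0497) in the 5 fits that dropped replicate 3 or replicate 4 of AL SIRT1-/-, replicate 3 of CR SIRT1+/-, replicate 1 of CR SIRT1+/+, or replicate 3 of AL SIRT1+/+.

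**Figure D2:**
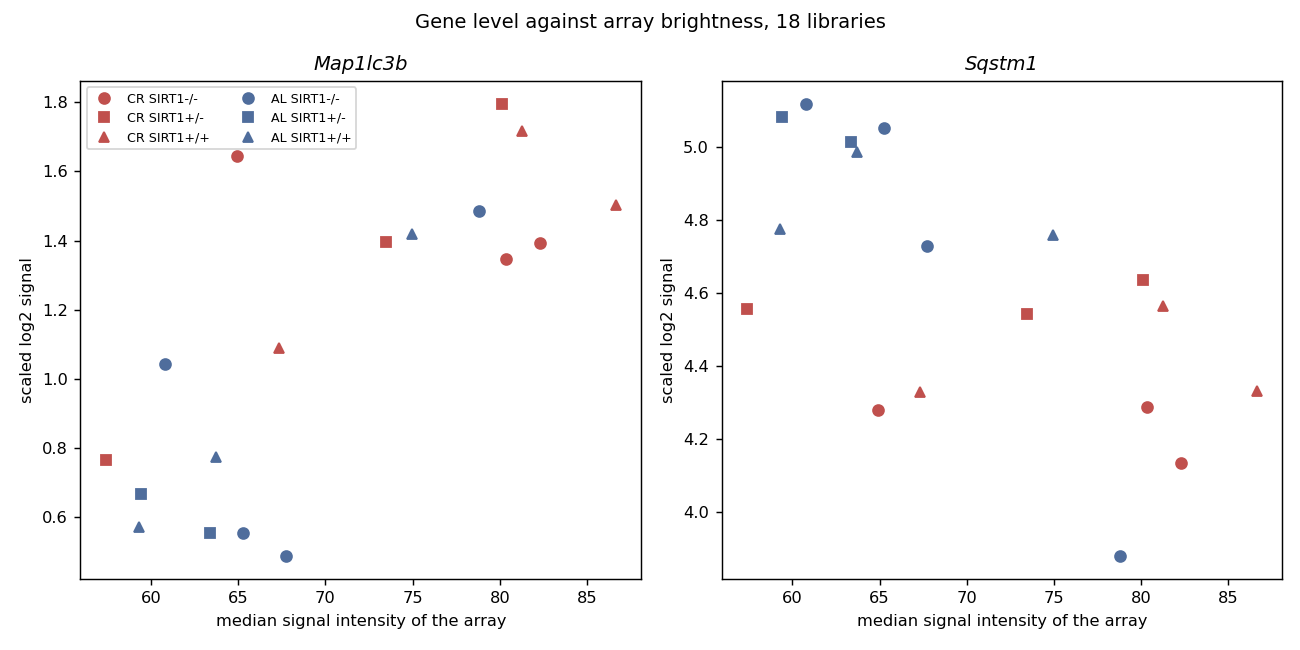
Scaled log2 signal of Map1lc3b (left) and Sqstm1 (right) on the vertical axis against the median signal intensity of the array on the horizontal axis, with 1 point per library, coloured by diet and shaped by genotype. The AL libraries at 1.49 and 1.42 for Map1lc3b are the 2 brightest AL arrays, at 78.8 and 75.0.

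Sqstm1 stood at 4.28, 4.13 and 4.29 in CR SIRT1-/- livers, against 4.73, 5.05, 5.12 and 3.88 in AL SIRT1-/- livers. It was at 4.54, 4.64 and 4.56 in CR SIRT1+/- livers and at 5.01 and 5.08 in AL SIRT1+/- livers. In CR SIRT1+/+ livers it was at 4.33, 4.56 and 4.33, against 4.78, 4.99 and 4.76 in AL SIRT1+/+ livers. Every CR liver lay below every AL liver but 1, AL SIRT1-/- replicate 4, which was the lowest of all 18 libraries for this gene. The averaged difference was -0.45 (SE 0.14, 95% confidence interval -0.74 to -0.17, adjusted p = 0.0442), and it was of similar size in the genotypes, at -0.46 (SE 0.21) in SIRT1-/-, -0.47 (SE 0.26) in SIRT1+/- and -0.43 (SE 0.23) in SIRT1+/+ mice, with adjusted p of 0.326, 0.639 and 0.405.

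Without AL SIRT1-/- replicate 4, Sqstm1 fell by 0.55 (SE 0.073, adjusted p = 0.00121) averaged over genotypes, and by 0.73 (SE 0.12, adjusted p = 0.0308) in SIRT1-/- mice, where it was called only then, without replicate 1 as well, and with a block for the replicate number, a fit in which number 4 belongs to this library alone and so takes it out. Over all 18 libraries no member had every CR liver above (0.156% of all genes) or below (0.101%) every AL liver. In the 17 libraries without AL SIRT1-/- replicate 4 the 9 CR livers did not overlap the 8 AL livers for Sqstm1 alone among the members. Of all genes, 0.168% (15) were lower and 0.268% (24) higher in CR livers without overlap in these 17, a comparison chosen after the values were seen. With each of the other 17 libraries left out in turn, the difference of Sqstm1 was -0.48 to -0.41 but its adjusted p was 0.0533 to 0.110. The libraries with a Y-linked signal alone gave -0.27 (adjusted p = 0.446, 67 genes called), while adding the Y-linked transcripts to the fit gave -0.54 (adjusted p = 0.0376).

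**Figure D3:**
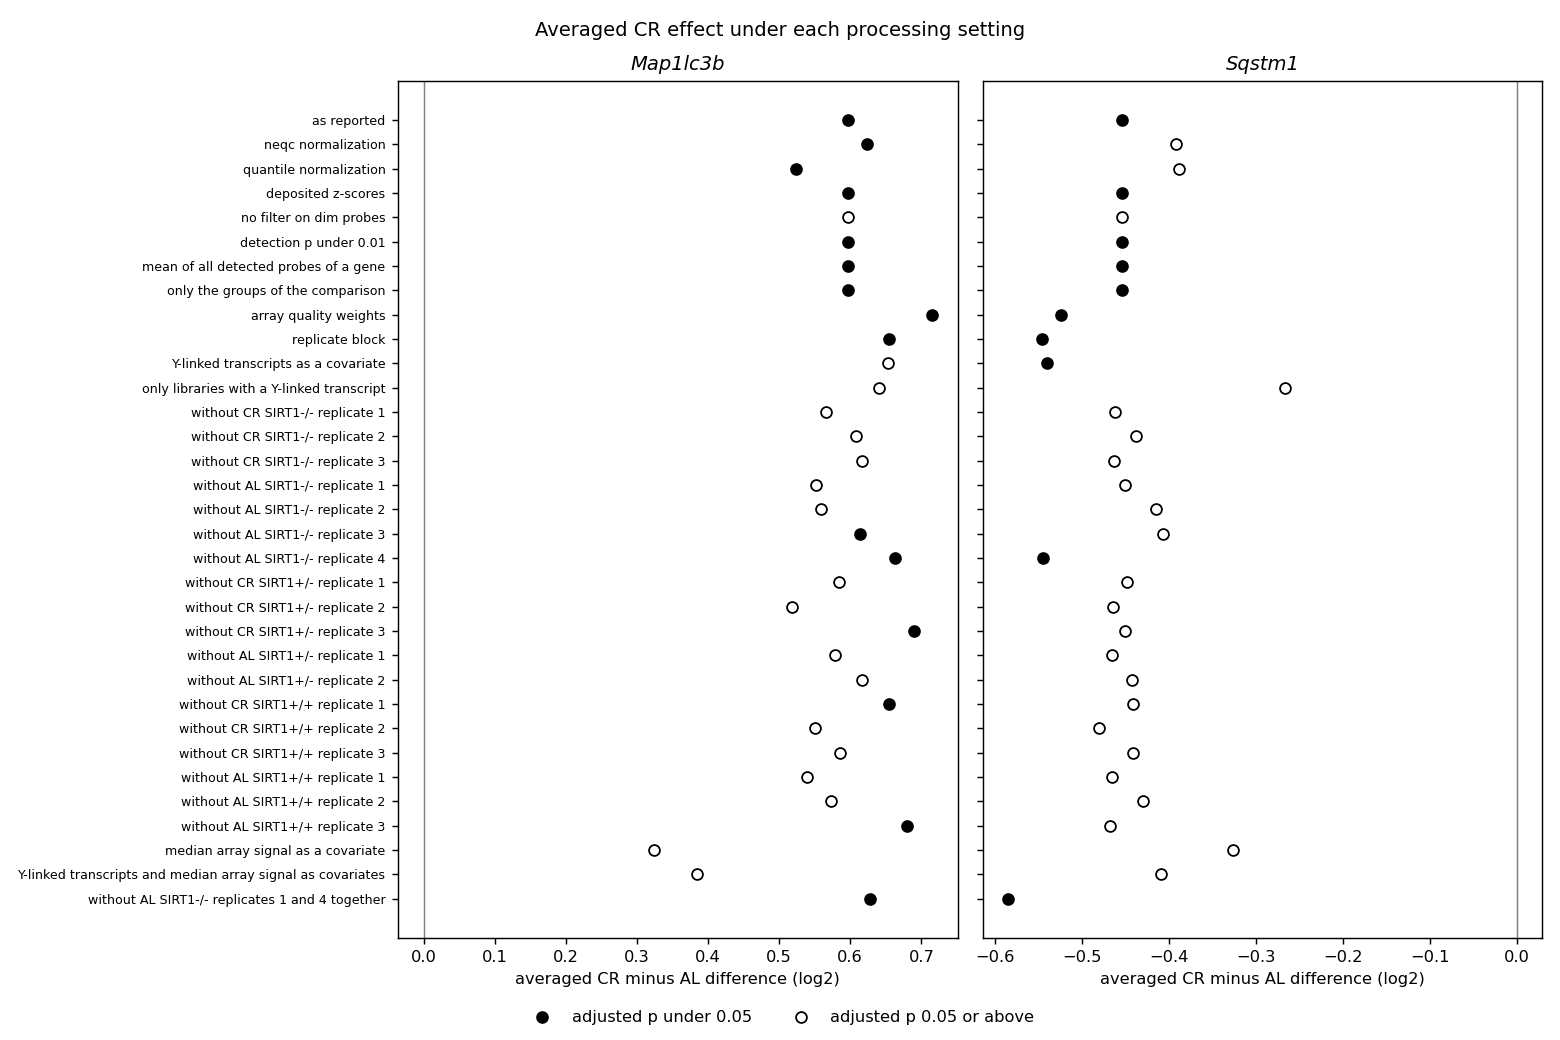
Averaged CR minus AL difference (horizontal axes, log2) of Map1lc3b (left) and Sqstm1 (right) as reported and under each other setting (rows), with filled points where the limma adjusted p was under 0.05. Map1lc3b stayed above 0 and Sqstm1 below 0 in every row, at 0.32 to 0.72 and at -0.58 to -0.27.

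Of the initiation genes, the kinase gene Ulk1 stood at 3.12, 2.75 and 3.18 in CR SIRT1-/- livers, against 3.13, 3.74, 3.63 and 2.20 in AL SIRT1-/- livers. It was at 2.85, 2.84 and 2.93 in CR SIRT1+/- livers, against 3.63 and 3.11 in AL SIRT1+/- livers, and at 2.25, 2.96 and 2.75 in CR SIRT1+/+ livers, against 3.23, 3.84 and 2.95 in AL SIRT1+/+ livers. The median was 2.85 in CR and 3.23 in AL livers, and AL SIRT1-/- replicate 4 was the lowest library here too. The averaged difference was -0.45 (SE 0.20, adjusted p = 0.151), and -0.55 (SE 0.14, adjusted p = 0.0222) without that library. The 2 Ulk1 probes gave like differences, -0.45 and -0.36. Becn1, which encodes the regulatory subunit of the lipid kinase complex, differed by -0.11 (SE 0.07, adjusted p = 0.355), with 0.04 for its second probe, which was detected in 5 libraries, and its levels of 0.48 to 0.78 in CR livers overlapped those of 0.56 to 1.02 in AL livers. Wipi1, whose product binds the lipid that the complex makes, differed by -0.01 (95% confidence interval -0.24 to 0.22), with levels of 0.91 to 1.51 in CR and 0.89 to 1.57 in AL livers. Its 3 probes gave -0.16, 0.07 and -0.01.

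Atg7, the activating enzyme of the conjugation step, stood at 0.31, 0.13 and 0.15 in CR SIRT1-/- livers, against 0.43, 0.26, 0.02 and 0.22 in AL SIRT1-/- livers. It was at 0.47, 0.11 and 0.40 in CR SIRT1+/- livers, against 0.76 and 0.47 in AL SIRT1+/- livers, and at 0.24, -0.11 and 0.50 in CR SIRT1+/+ livers, against 0.74, 0.51 and 0.66 in AL SIRT1+/+ livers. All AL SIRT1-/- livers and all CR SIRT1+/+ livers were thus below all AL SIRT1+/+ livers. Neither difference passed the test, with adjusted p of 0.503 for SIRT1-/- minus SIRT1+/+ on AL (-0.41, SE 0.15, unadjusted p = 0.0154) and 0.234 for CR minus AL in SIRT1+/+ mice (-0.42, SE 0.16, unadjusted p = 0.0173). The averaged CR effect was -0.25 (SE 0.09, adjusted p = 0.0993), and without CR SIRT1+/+ replicate 3 it was -0.30 (adjusted p = 0.0499).

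Of the other ATG8 genes, Map1lc3a (LC3A) was at 1.27, 1.73 and 1.90 in CR SIRT1-/- livers, against 1.19, 1.57, 1.83 and 1.35 in AL SIRT1-/- livers, and ranged between 1.02 and 2.21 over all CR and 1.19 and 1.83 over all AL livers. Its averaged difference was 0.07 (SE 0.15, 95% confidence interval -0.26 to 0.39), and its second, dimmer probe gave -0.15 (SE 0.15), of the other sign. Gabarapl1 spread the most, at 5.10, 4.35 and 4.25 in CR SIRT1-/- livers, against 4.82, 5.00, 5.55 and 2.73 in AL SIRT1-/- livers. It was at 4.69, 4.40 and 5.51 in CR SIRT1+/- livers, against 4.85 and 5.02 in AL SIRT1+/- livers, and at 3.16, 4.92 and 4.55 in CR SIRT1+/+ livers, against 4.75, 4.71 and 4.59 in AL SIRT1+/+ livers. The 2 libraries AL SIRT1-/- replicate 4 and CR SIRT1+/+ replicate 1 lay more than 1 unit below the rest of their diet, and the averaged difference of -0.17 had a 95% confidence interval of -0.89 to 0.55. Whether the averaged CR effect of Map1lc3b differed from those of Map1lc3a and Gabarapl1 was not tested.

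Bnip3, the mitophagy receptor gene, has 1 probe, whose signal of 42.8 to 55.7 lay at the level of the negative control beads, with a detection p of at least 0.457. It was not above background in any of the 6 groups, and no fold change is given.

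Lamp2, whose product lines the lysosome, was at 6.32, 5.83 and 5.96 in CR SIRT1-/- livers, against 5.86, 6.07, 6.00 and 5.95 in AL SIRT1-/- livers. It was at 6.14, 5.86 and 6.28 in CR SIRT1+/- livers, against 6.17 and 6.31 in AL SIRT1+/- livers, and at 5.84, 5.78 and 5.91 in CR SIRT1+/+ livers, against 6.32, 6.41 and 6.06 in AL SIRT1+/+ livers. The diets separated in SIRT1+/+ livers, with CR lower by a mean of 0.42, and overlapped in both other genotypes. The unscaled mean signal of this probe ran the other way, at 9821 in CR and 8019 in AL SIRT1+/+ livers. Each other Lamp2 probe was likewise higher on CR there before scaling. The lower Lamp2 level is thus relative to the other probes of an array. In SIRT1+/+ livers the sex-linked signal nearly follows diet (Xist in 2 of 3 CR and 0 of 3 AL arrays), and with the Y-linked transcripts in the fit the CR effects there were -0.36 for Lamp2 (adjusted p = 0.383) and -0.41 for Atg7 (adjusted p = 0.382). The difference in SIRT1+/+ mice was -0.42 (SE 0.14, unadjusted p = 0.0109, adjusted p = 0.202) and that in SIRT1-/- mice was 0.06 (SE 0.13). The CR effect in SIRT1-/- minus that in SIRT1+/+ mice was 0.48 (SE 0.20, unadjusted p = 0.0281, adjusted p = 0.852), so this contrast did not pass either. The 4 Lamp2 probes, a pair for each of 2 RefSeq transcripts, gave CR effects in SIRT1+/+ mice of -0.42 and -0.30 for the first transcript and of -0.45 and -0.38 for the second, none of them called among 12054 probes.

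**Figure D4:**
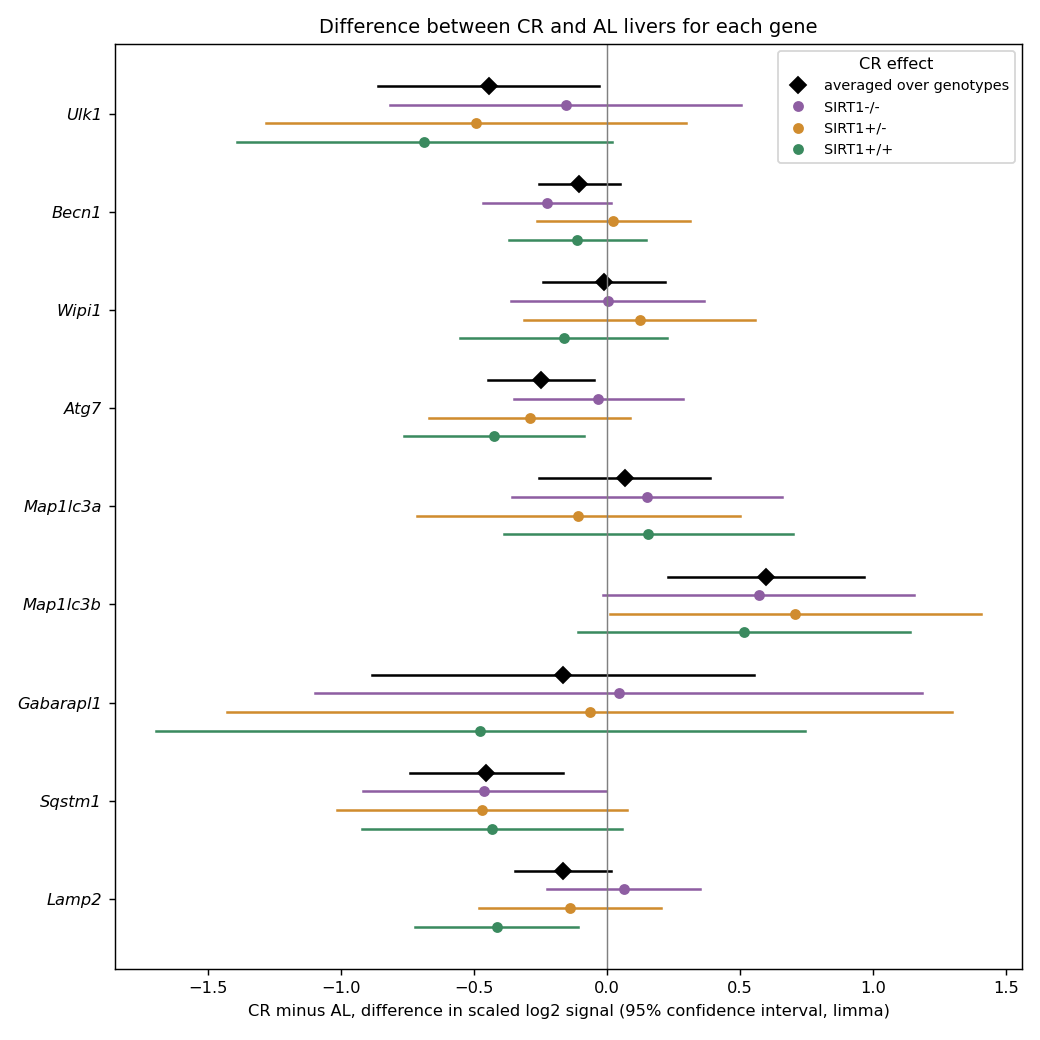
CR minus AL difference in scaled log2 signal (horizontal axis) of each detected gene, averaged over genotypes (diamonds) and in SIRT1-/-, SIRT1+/- and SIRT1+/+ mice (circles), with 95% confidence intervals from limma. The averaged interval of Map1lc3b runs 0.23 to 0.96 and that of Sqstm1 -0.74 to -0.17, and the Lamp2 effect is 0.06 in SIRT1-/- and -0.42 in SIRT1+/+ mice.

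The second question was whether SIRT1 alleles changed these transcripts or their response to CR. No member was called for any genotype difference on either diet, for either difference of CR effects between genotypes, for the CR effect within a genotype or for any difference among the 6 groups. The share of all genes called was 0.38% (0.0782% up and 0.302% down) for SIRT1-/- against SIRT1+/+ on AL, 0% for that difference on CR and for SIRT1+/- against SIRT1+/+ on either diet, 0.0223% and 0% for the differences of CR effects of SIRT1-/- and of SIRT1+/- mice from that of SIRT1+/+ mice, and 0.983% for any difference. Within a genotype, CR was called for 0.145% of genes in SIRT1-/-, 0.0223% in SIRT1+/- and 0.659% in SIRT1+/+ mice. In SIRT1-/- mice, CR gave an unadjusted p under 0.05 for 1 member that was lower, Sqstm1 (6.48% of all genes), and 0 that were higher (8.55%). In SIRT1+/- mice it did so for 1 that was higher, Map1lc3b (5.08%), and 0 that were lower (3.25%). In SIRT1+/+ mice, CR gave an unadjusted p under 0.05 for 2 members, Atg7 and Lamp2, both lower (5.9% of all genes), and for 0 that were higher (8.66%). Lamp2, like Atg7, was lower in AL SIRT1-/- than in AL SIRT1+/+ livers without passing the test (-0.29, SE 0.13, unadjusted p = 0.0473, adjusted p = 0.742). The difference of CR effects in SIRT1-/- minus SIRT1+/+ mice was 0.05 (95% confidence interval -0.80 to 0.91) for Map1lc3b and -0.03 (-0.70 to 0.64) for Sqstm1, intervals wide enough to hold changes as large as the CR effects themselves.

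The libraries were also compared by whether the diets overlapped within a genotype. In SIRT1+/+ livers, CR was lower than AL without overlap for 3 members, Sqstm1, Atg7 and Lamp2 (7.87% of all genes), and higher for 0 (12.6%). In SIRT1+/- livers, with 2 AL mice, it was lower for 3, Sqstm1, Atg7 and Ulk1 (12.6%), and higher for 1, Map1lc3b (18%). For Atg7 the separation was very narrow in both genotypes. Its highest CR and lowest AL levels were 0.468 and 0.470 in SIRT1+/- livers, and 0.501 and 0.507 in SIRT1+/+ livers. In SIRT1-/- livers the diets overlapped for every detected member (7.09% of all genes were higher and 5.72% lower without overlap). The CR effect had the same sign in all 3 genotypes for 1 member above 0, Map1lc3b (30% of all genes), and 3 below 0, Ulk1, Atg7 and Sqstm1 (22.6%).

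Across the 18 libraries, which share their diets and their brightness, Sqstm1 moved with Ulk1 (Pearson r = 0.80) and with Gabarapl1 (r = 0.66), and against Map1lc3b (r = -0.63). The 3 genes most like Map1lc3b over these libraries were Rab5c (r = 0.90), Marchf5 (r = 0.90) and Mtrf1l (r = 0.90). Those most like Sqstm1 were Nit2 (r = 0.91), Akap1 (r = 0.90) and Cyp8b1 (r = 0.87). These are descriptions over n = 18 libraries.

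The members are a small share of the pathway, so 111 other autophagy and lysosome genes were listed by role, 96 of them on the array and 88 tested. Of the 88, 5 were called up and 2 down averaged over genotypes, against 6.41% and 3.63% of all genes, but 1 of the 5, Atg4b, passed the detection filter through CR libraries alone and its call is not counted as a rise. The median effect was 0.07, against 0.03 over all genes. Among the called genes, Retreg1 (FAM134B, a receptor for autophagy of the endoplasmic reticulum) rose most, while Atp6v1d of the proton pump, at 1.00 (SE 0.42, adjusted p = 0.133), was not called. Retreg1 stood at 5.27, 4.68 and 5.14 in CR SIRT1-/- livers, against 4.06, 4.32, 4.17 and 4.32 in AL SIRT1-/- livers. It was at 4.27, 4.54 and 4.60 in CR SIRT1+/- livers, against 3.37 and 3.46 in AL SIRT1+/- livers. In CR SIRT1+/+ livers Retreg1 was at 5.87, 4.29 and 4.86, against 3.56, 3.52 and 4.53 in AL SIRT1+/+ livers. Its diets separated in the SIRT1-/- and SIRT1+/- genotypes, and the averaged difference of 1.00 (SE 0.19, adjusted p = 0.00578) was called in each of the 18 fits without 1 library and with the median array signal as a covariate (1.08, adjusted p = 0.0267). The call of Retreg1 was lost in 2 of the 32 alternative settings. These were the arrays with a Y-linked signal alone, and the Y-linked transcripts and median array signal together as covariates.

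Of the 7 detected mitophagy genes, 2 rose averaged over genotypes, where 6.41% of all genes did, and 0 were called within a genotype. Bnip3l, the close relative of the undetected Bnip3 and the receptor that clears mitochondria from maturing red cells, ranged between 3.70 and 4.38 in the 9 CR livers and between 3.51 and 3.69 in the 9 AL livers, with no overlap between the diets. Of all genes, 0.156% (14) were higher in CR livers without overlap. Its averaged difference was 0.34 (SE 0.09, adjusted p = 0.0297), and 0.36 (adjusted p = 0.0964) with the median array signal as a covariate. Bnip3l is abundant in red cells, and the erythroid markers averaged 2.04 to 5.12 in CR and 2.74 to 4.60 in AL livers, with a median averaged CR effect of -0.80 over the 3 detected and 1 of them called down. Their part in the result was not tested. Mul1, a ubiquitin ligase of the mitochondrial outer membrane, rose by 0.37 (SE 0.09, adjusted p = 0.0242), and differed by 0.26 (adjusted p = 0.162) with the median array signal as a covariate. Both calls were lost when replicate 2 of CR SIRT1-/-, replicate 2 of CR SIRT1+/- or either AL SIRT1+/- liver was dropped, and that of Bnip3l also without replicate 1 or 2 of AL SIRT1+/+ (adjusted p 0.0534 to 0.0915 for Bnip3l and 0.0545 to 0.0749 for Mul1).

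Tpp1, a lysosomal peptidase, rose by 0.33 (SE 0.08, adjusted p = 0.0207) and was the 1 called gene of 15 lysosomal hydrolases, 12 of which had a positive averaged effect, as did 4880 of all 8950 genes. Atg4b, the protease that trims ATG8 proteins, had a difference of 0.29 (SE 0.08, adjusted p = 0.0369), but its dim probe was detected in 2 of 3 libraries of each CR group and in 0 of the AL libraries, so it entered the test only through the diet in which it was higher. On the other side, Trp53inp2 (DOR, a nuclear cofactor that joins autophagosomes) fell by 0.72 (SE 0.16, adjusted p = 0.0142) and Nrbf2, a subunit of the lipid kinase complex of BECN1, fell by 0.66 (SE 0.15, adjusted p = 0.0158). Without AL SIRT1+/- replicate 1 the calls of Tpp1, Trp53inp2 and Nrbf2 were lost, at adjusted p of 0.0833, 0.0547 and 0.0737, and each was kept in the other 17 fits without 1 library. Atg4b was kept in 6 of 18 such fits, those that dropped replicate 3 of CR SIRT1-/-, replicate 4 of AL SIRT1-/-, replicate 3 of CR SIRT1+/-, replicate 1 or 3 of CR SIRT1+/+, or replicate 3 of AL SIRT1+/+, and was at 0.0517 to 0.120 in the other 12. With the median array signal as a covariate, Trp53inp2 was still called (-0.77, adjusted p = 0.0489), while Tpp1, Atg4b and Nrbf2 were not, at adjusted p of 0.108, 0.212 and 0.105. On the arrays with a Y-linked signal alone, no gene of the wider list was called, Trp53inp2, Bnip3l and Mul1 included. The same held with the Y-linked transcripts and the median array signal together as covariates. Of all 8950 genes, 67 and 127 were called in these fits. No gene was called among the 3 initiation genes, 7 phosphoinositide effectors, 15 lysosomal membrane genes and 14 vacuolar ATPase genes.

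Among the genes named for their small p in each list, none of which was called, the averaged differences were -0.21 for Ulk2 and -0.12 for Atg13 (initiation), 0.22 for Pik3c3 (the lipid kinase itself), 0.17 for Atg2b and 0.47 for Zfyve1, -0.20 for Atg5 (conjugation), 0.01 for Gabarap and 0.33 for Tax1bp1 (a cargo receptor). Among the lysosomal genes they were 0.26 for Mcoln1, 0.25 for Scarb2 and 0.42 for Naglu, 0.20 for Atp6ap2 and -0.27 for Atp6v1f of the proton pump, and 0.62 for Prkaa2, a catalytic subunit of AMPK. No gene of the wider list was called in any other comparison of diet or genotype.

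**Figure D5:**
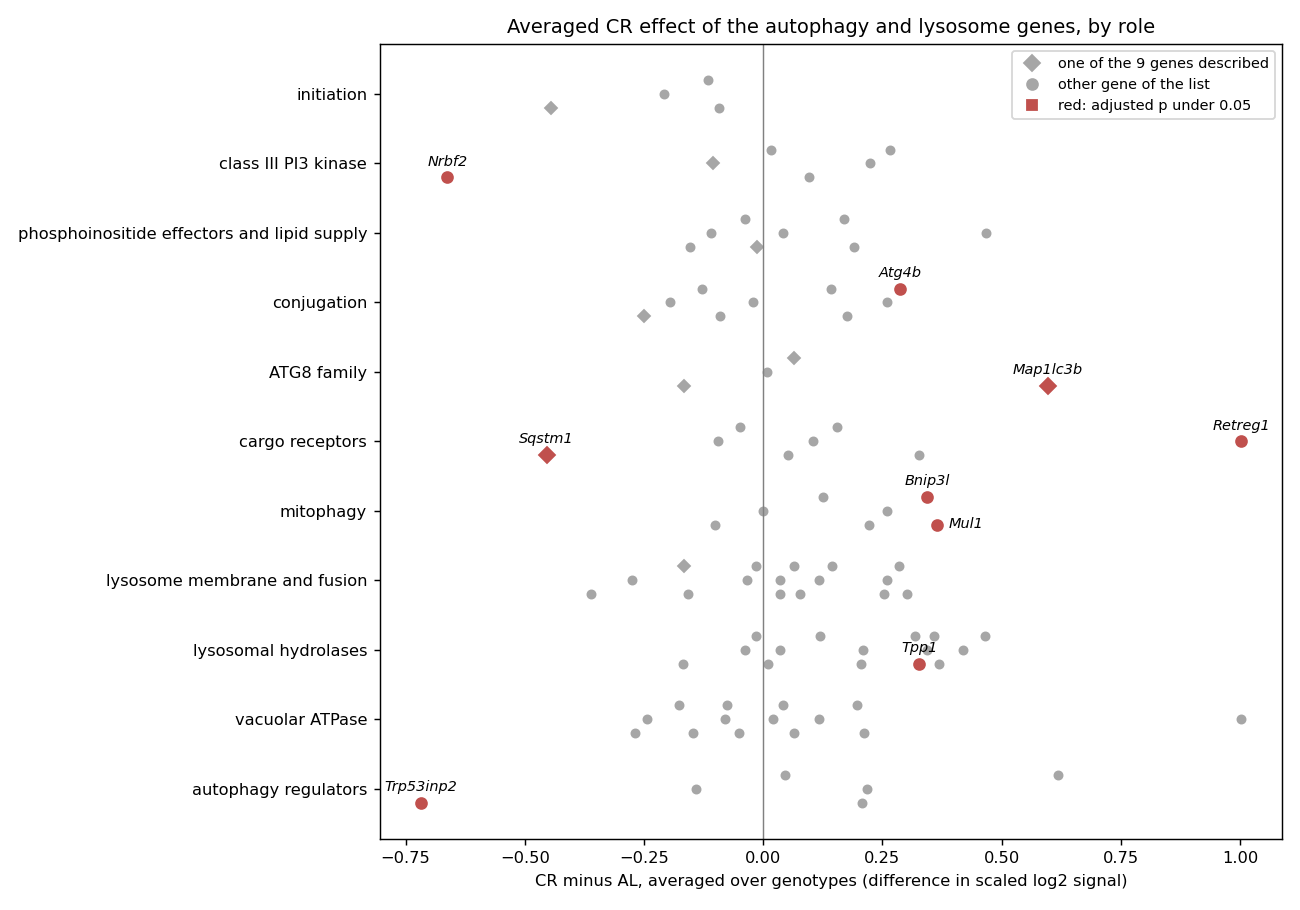
Averaged CR minus AL difference in scaled log2 signal (horizontal axis) of the 9 detected members (diamonds) and 88 other autophagy and lysosome genes (circles), in rows by role, with red points where the limma adjusted p was under 0.05. Retreg1 lies at 1.00 and Map1lc3b at 0.60 on the right, and Trp53inp2 at -0.72, Nrbf2 at -0.66 and Sqstm1 at -0.45 on the left.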

How the data were processed

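BeadStudio 3.4.0 made the deposited files. For each probe and library the authors deposited the raw signal intensity, with no background taken off, a detection p-value, and a score, which is the log intensity z-transformed within the array. Scores recomputed here from the intensities were within 5.0e-10 of the deposited ones, and were multiplied by 1.84, the mean SD of log2 signal over arrays. Of 25697 probes, 23978 had 1 gene symbol and 1719 were not named. A gene was tested where a probe passed a detection p of 0.05 in 2 or more libraries, and its brightest such probe stood for it, which left 8950 genes. limma 3.58.1 in R 4.3.3 fitted the 6 group means to all 18 libraries, with 10 two-sided contrasts and a moderated F test, adjusted over all genes by Benjamini-Hochberg. The SE of the averaged CR effect had a median of 0.105 over genes, and the number of arrays limits the precision. The code was tested on simulated data.

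The members and lists were chosen with earlier results of these data known. The text names the 10 members, the called genes of the wider list, the 2 non-members of smallest p in each role (called genes included), and the 3 genes most like the members of largest positive and negative averaged effect. Settings varied were the normalization (neqc with offset 16, quantile, the scores as deposited), the probe filter (none, or a detection p of 0.01), the mean of a gene's probes, fits of only the groups compared, array weights, a block for the replicate number, the sex-linked signal (Y-linked transcripts added to the fit, or only arrays that detect them) and each library dropped in turn. Chosen after seeing the data were the median array signal as a covariate, alone and with the Y-linked transcripts, the removal of AL SIRT1-/- replicates 1 (of doubtful genotype) and 4 together, and a fit of each probe. Symbols and upstream sequences came from RefSeq (GRCm38.p6), and figures from matplotlib 3.10.9 in Python 3.11.15.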

Additional observations from a re-analysis of the deposited data

Results flagged for a closer look

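Dixon's test was applied only to the largest group, the 4 AL SIRT1-/- livers, and the groups of 2 or 3 livers were not examined. Within these 4 livers, 9 members and 21 other named genes were examined, 30 in all. In 5 of them 1 liver lay far from the rest, and no member was among them. Chance gives about 1 in 20 for independent groups, but these genes share the same 4 livers, so the count is not read against it. Trp53inp2 was at 2.93 in AL SIRT1-/- replicate 1 and at 3.81 to 3.87 in the other 3 livers, a gap of 0.930 of the range. Zfyve1 was at 0.29 in AL SIRT1-/- replicate 2 and at 0.80 to 0.90 in the others, a gap of 0.831. AL SIRT1-/- replicate 4, which also had the highest acute-phase level, lay apart for Gabarap (a gap of 0.890 of the range), Scarb2 (0.843) and Prkaa2 (0.865).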

How the results depend on the processing

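The averaged CR effect called 2 of 9 members. It called 1 with neqc or quantile normalization (Map1lc3b) and 1 with the Y-linked covariate (Sqstm1), 4 with array weights (with Atg7 and Ulk1), and 0 with no probe filter, with Y-linked arrays only, with the median signal as a covariate and with both covariates. Leaving out 1 library gave 0 to 3. In SIRT1-/- mice, and for any difference among the 6 groups, 0 members were called as reported and 0 to 1 without 1 library. Sqstm1 was the 1 called in SIRT1-/- mice with the replicate block and without AL SIRT1-/- replicates 1 and 4 together, and 1 was called for any difference with array weights, with the block and without those 2 libraries. Of the wider list, 7 were called as reported (Atg4b included), 25 with array weights, 4 with the Y-linked covariate, 3 with the median signal, 0 with Y-linked arrays only or both covariates, and 1 to 12 without 1 library. In the other 8 comparisons no member was called under any of the 32 alternatives. Over all genes, 899 were called as reported (63.8% up), 987 with neqc (50.5% up), 977 with quantile normalization (52.2% up), 2136 with array weights, 491 with the Y-linked covariate, 67 with Y-linked arrays only, 277 with the median signal (52.7% up) and 127 with both covariates (52.0% up).

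The labels do not say that replicate numbers pair the mice. Deviations from the group means correlated at -0.18 to 0.27 in 8 same-numbered CR and AL pairs, 2 of them over 0.1. In 19 pairs of other numbers they correlated at -0.22 to 0.20, 4 of them over 0.1. With 2 to 4 mice to a group, these correlations cannot decide whether mice were paired. Number 4 belongs to AL SIRT1-/- replicate 4 alone, so the replicate block also takes that library out. With the block, the averaged CR effect called 3 members, Map1lc3b (0.65), Sqstm1 (-0.55) and Ulk1 (-0.56, adjusted p = 0.0300), and 1304 genes. All CR libraries stand before all AL libraries in the deposited table, so a batch in that order and the diet cannot be told apart.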
